A study of Mus musculus with 18 samples.

Results

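The fatty acid transport proteins of the Slc27a family and the long-chain acyl-CoA synthetases of the Acsl family were followed across brown and white fat of mice kept warm or cold. The 10 genes were chosen by name (Slc27a1, Slc27a2, Slc27a3, Slc27a4, Slc27a6, Acsl1, Acsl3, Acsl4, Acsl5 and Acsl6), and every probe set that the annotation of the array gives to 1 of them was used. In all, 14 of the 45037 probe sets tested carried such a name. They stood for 8 of the 10 genes, among 18193 genes with a probe set of their own. The expression of Acsl1 and Slc27a6 was not analysed here, because no probe set in the annotation used carries their names. The arrays held RNA of interscapular BAT, inguinal sWAT and mWAT from female Sv129 mice aged 10 wk, which had been caged singly for 10 days at 28°C, near thermoneutrality for a mouse, or at 6°C. Each of the 6 groups had 3 arrays, 18 in all, whose numbers within a group are only names. None of the groups carries a transgene or a drug treatment, and all share strain, sex and age. Each array reports a whole dissected depot with every cell type in it, so fewer cells of a type and less RNA per cell cannot be told apart. The tissue and temperature in one field of the labels contradict the titles, and the groups used here follow the titles.

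Long-chain fatty acids enter a cell across its membrane and are trapped there once an acyl-CoA synthetase couples them to coenzyme A at the cost of ATP. Acyl-CoA can then be burned in mitochondria or peroxisomes, or joined to glycerol and stored. Proteins of both families carry this synthetase activity, and the Slc27a proteins (FATPs) are also known for raising fatty acid uptake. In brown fat the activated fatty acids are the fuel of heat production, while white fat mainly stores them as triglyceride.

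The depots carried the markers of the tissues named in their titles. The mean of 5 subcutaneous depot markers was 9.10 to 9.55 in sWAT and at most 5.92 elsewhere. That of 6 mesothelial markers was 10.07 to 11.55 in mWAT and at most 6.91 elsewhere. Zic1, a transcription factor of the brown lineage, had log2 intensities of 9.67 to 9.93 in BAT and at most 3.74 elsewhere. Ucp1, the uncoupling protein of brown and beige adipocytes, was at 9.52 to 10.55 in sWAT at 28°C and at 13.68 to 13.95 in sWAT at 6°C. The median log2 intensity of an array lay between 6.97 and 7.20. The table holds no detection calls, so the exact size of a difference is not measured where a group lies under these medians. Over all probe sets, the third mWAT array at 28°C and the third mWAT array at 6°C had a correlation of 0.991. Their correlations with the remaining 4 mWAT arrays were 0.949 to 0.969. The mean of 11 lymphocyte markers was 7.05 and 7.04 on these arrays, and the highest mWAT arrays reached 11.43 at 28°C and 11.37 at 6°C. Skeletal muscle markers (17 genes) averaged 7.54 to 12.63 in BAT, 6.26 to 11.43 in sWAT and at most 7.24 in mWAT. The mean of 7 pancreas markers was 10.64 on the third BAT array at 6°C. It was 10.09 on the first mWAT array at 28°C, 14.08 on the second mWAT array at 6°C, and at most 7.16 on the other arrays. The part of these cell types in the results below was not tested beyond fits that left out arrays or had the muscle or lymphocyte list as a covariate.

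**Figure D1:**
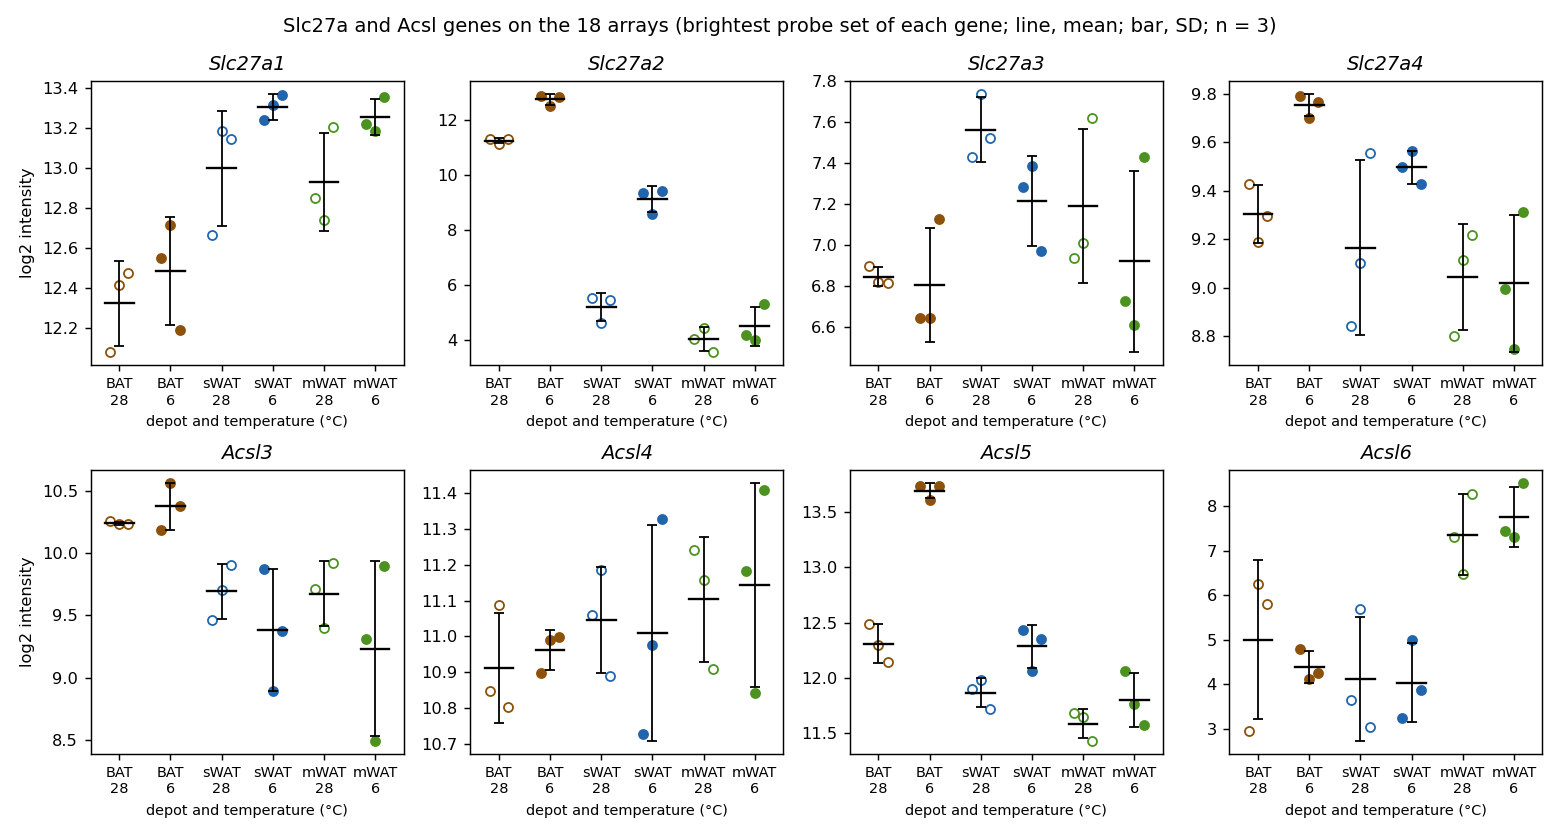
Log2 intensity (y axis, a separate scale for each gene) of the brightest probe set of 8 genes on the 18 arrays, by depot and temperature (x axis, °C). Open points are arrays at 28°C and filled points arrays at 6°C, and the line and bar are the mean and SD of 3 arrays. Slc27a2 runs from 3.58 to 12.86 and Acsl5 from 11.44 to 13.74, while Acsl4 stays between 10.73 and 11.41.

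Cold exposure raised Acsl5 in BAT and Slc27a2 in sWAT, and no other member passed an adjusted p of 0.01 in any of the 3 depots. In BAT, 1 of the 8 genes passed (Acsl5, higher), beside 5.33% of all genes. In sWAT, 1 of 8 passed (Slc27a2, higher), beside 0.742% of all genes. In mWAT, 0 of 8 passed in limma, beside 0.0055% of all genes, which is 1 gene. None of the 8 had an unadjusted p under 0.05 in limma, beside 837 of 18193 genes. The median log2 difference of the 8 genes was 0.15 in BAT, 0.14 in sWAT and 0.13 in mWAT, and that of all genes was between -0.01 and 0.01 in the 3 depots.

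**Figure D2:**
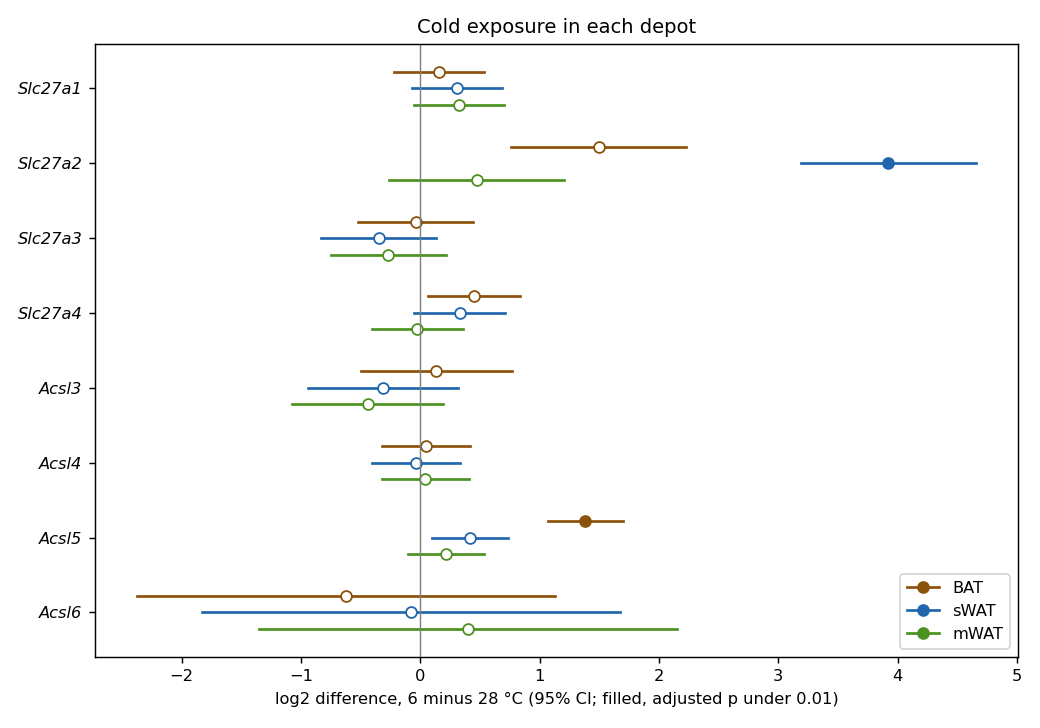
Log2 difference between 6 and 28°C (x axis) of the 8 genes (y axis) in BAT, sWAT and mWAT, with 95% confidence intervals from the limma fit. Filled points passed an adjusted p of 0.01, which Acsl5 did in BAT (1.38) and Slc27a2 in sWAT (3.92).

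The sequences before the start sites of Slc27a2 and Acsl5 are shown because these genes carry the cold differences, and a stretch before Acsl6 because it holds the one motif match found. They are from RefSeq (GRCm38.p6), 5′ to 3′, upstream of the start site and on the plus strand, at chr2:126552774-126553023 (Slc27a2), chr19:55253119-55253368 (Acsl5) and chr11:54303631-54303690 (Acsl6, bases -193 to -134 of the first of its 3 listed starts). Capitals mark the match.
Slc27a2: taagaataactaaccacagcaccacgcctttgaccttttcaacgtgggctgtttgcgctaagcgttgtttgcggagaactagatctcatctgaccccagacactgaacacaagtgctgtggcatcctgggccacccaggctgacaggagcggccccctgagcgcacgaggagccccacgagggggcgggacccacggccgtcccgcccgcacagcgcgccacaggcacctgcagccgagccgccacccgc
Acsl5: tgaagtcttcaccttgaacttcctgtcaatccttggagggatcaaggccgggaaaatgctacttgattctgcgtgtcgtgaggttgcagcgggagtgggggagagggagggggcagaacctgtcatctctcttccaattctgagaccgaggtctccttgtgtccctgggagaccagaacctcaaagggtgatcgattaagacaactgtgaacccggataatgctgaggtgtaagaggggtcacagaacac
Acsl6: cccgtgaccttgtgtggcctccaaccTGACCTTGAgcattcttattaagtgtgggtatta
The 3 motifs were searched on both strands in 14 windows of 9 of the genes, from 250 bases before to 50 after each start (Slc27a6 was left out). The DR1 element of PPAR and RXR (AGGTCANAGGTCA, up to 2 mismatches in its 12 fixed letters) was in 0 of 14 windows and in 3.86% of 32851 windows of all genes. The ERR element (TCAAGGTCA), which contains the AGGTCA repeated in DR1, was in 1 of 14, that of Acsl6 on the minus strand from base -167, and in 0.423% of all windows. The CRE (TGACGTCA) was in 0 of 14 and in 1.79% of all windows. The window of Slc27a2 had a GC content of 65.3% and 25 CG pairs, and that of Acsl5 53.0% and 9, beside a median GC content of 52.7% over all windows. A match describes letters, and no match says only that these letters are not in the window.

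Slc27a2 (FATP2), a very-long-chain acyl-CoA synthetase of the endoplasmic reticulum and peroxisomes that is abundant in liver and kidney, differed most between groups of the 8 genes, with group means that span 8.70 on the log2 scale. Its log2 intensities in BAT were 11.31, 11.13 and 11.29 at 28°C and 12.86, 12.50 and 12.84 at 6°C. In sWAT they were 5.54, 4.62 and 5.45 at 28°C and 9.36, 8.59 and 9.42 at 6°C. In mWAT they were 4.07, 4.45 and 3.58 at 28°C and 4.18, 4.01 and 5.33 at 6°C. The arrays of the 2 temperatures did not overlap in BAT or in sWAT, overlapped in mWAT, and every BAT array lay above every sWAT array.

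In sWAT the log2 intensity of Slc27a2 rose by 3.92 ± 0.34 (SE) in the cold, which is 15.1-fold (adjusted p = 6.9e-05). The warm arrays lie under the array medians, so the fold is not exact. In a fit of the sWAT arrays alone the difference was the same and its adjusted p was 0.020. In BAT the difference was 1.49 ± 0.34 (2.82-fold), and its adjusted p of 0.011 missed the threshold. This call was made in 8 of 11 alternative fits, among them that without both mWAT arrays numbered 3 (adjusted p = 0.0019). These 8 include the looser adjusted p threshold on the main fit, which such a near miss passes in any case. They also include the lymphocyte covariate, which was chosen after seeing the data. The difference fell to 1.18 with an adjusted p of 0.060 when the muscle list mean was a covariate. The call was also made without the second sWAT array at either temperature, the third mWAT array at 28°C, or the second or the third mWAT array at 6°C. In mWAT the difference was 0.47 ± 0.34, with a 95% confidence interval from -0.26 to 1.21. The mean of the 11 brown adipocyte markers also differed between the sWAT groups, with 8.75 to 9.13 at 28°C and 10.33 to 10.63 at 6°C, and no intensity in the table is 0. The mammary epithelium list was at 9.90 to 12.55 at 28°C and 9.18 to 9.44 at 6°C, and the macrophage list at 11.36 to 11.49 and 11.04 to 11.33. What part these lists have in the Slc27a2 difference was not tested.

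Between depots, Slc27a2 was higher in BAT than in sWAT by 6.04 ± 0.34 at 28°C (adjusted p = 3.2e-08) and by 3.61 ± 0.34 at 6°C (adjusted p = 3.5e-06). BAT exceeded mWAT by 7.21 ± 0.34 at 28°C and by 8.23 ± 0.34 at 6°C. The mWAT arrays at both temperatures and the sWAT arrays at 28°C lie under the array medians. Differences that involve them are thus not exact in size. The difference between sWAT and mWAT was 1.17 ± 0.34 at 28°C (adjusted p = 0.043) and 4.61 ± 0.34 at 6°C (adjusted p = 7.3e-07). Cold sWAT stayed below warm BAT by 2.12 on the log2 scale (-2.12 ± 0.34, adjusted p = 0.00044). With the lymphocyte list as a covariate that difference was -1.90, and its adjusted p of 0.011 missed the threshold. In order of level the groups were BAT at 6°C, BAT at 28°C, sWAT at 6°C, sWAT at 28°C, mWAT at 6°C and mWAT at 28°C. The first neighbours in that order missed the threshold, and the ranges of sWAT at 28°C and mWAT at 6°C overlapped, as did those of the mWAT groups.

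Slc27a1 (FATP1), the insulin-responsive transporter of muscle and fat, was lowest in BAT at both temperatures by its group means. Its brightest probe set was at 12.08 to 12.48 in BAT at 28°C and 12.19 to 12.72 at 6°C. In sWAT it was at 12.67, 13.19 and 13.14 at 28°C and at 13.24, 13.32 and 13.36 at 6°C. The mWAT arrays were at 12.74 to 13.21 at 28°C and 13.19 to 13.36 at 6°C. Every white fat array at 6°C lay above every BAT array. At 6°C Slc27a1 was lower in BAT than in sWAT by 0.82 on the log2 scale (-0.82 ± 0.18, adjusted p = 0.0023). Against mWAT the difference at 6°C was -0.77 ± 0.18 (adjusted p = 0.0023). Centring each array on its own median turned the latter to -0.58 with an adjusted p of 0.012, a fit of the compared groups alone gave it an adjusted p of 0.015, and leaving out the third BAT array at 6°C ended both calls.

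At 28°C Slc27a1 was lower in BAT than in sWAT (-0.67 ± 0.18, adjusted p = 0.0082), and the difference from mWAT missed the threshold (-0.61 ± 0.18, adjusted p = 0.013). The latter passed in 6 of 11 alternatives and without the third BAT array at 6°C or the first sWAT array at 28°C, with adjusted p from 0.0051 to 0.11 over the alternatives. These 6 include the looser adjusted p threshold on the main fit, which such a near miss passes in any case. They also include the lymphocyte covariate, which was chosen after seeing the data. The call against sWAT was lost in 12 of 18 fits that left out 1 array and in 3 of 11 alternatives, with adjusted p from 0.0028 to 0.059 over the alternatives. Of these 11, the looser threshold could not end the call. Those 12 fits were the ones without each array of BAT at 28°C, the first of BAT at 6°C, the second or the third of sWAT at 28°C, each array of sWAT at 6°C, the first of mWAT at 28°C, or the first or second of mWAT at 6°C. Cold sWAT was above warm BAT by 0.98 ± 0.18 (adjusted p = 0.00099). The cold difference of Slc27a1 itself was 0.16 ± 0.18 in BAT, 0.31 ± 0.18 in sWAT and 0.32 ± 0.18 in mWAT, all short of the threshold. A dimmer Slc27a1 probe set differed by 1.0 ± 0.36 between temperatures in both sWAT and mWAT without passing (adjusted p = 0.24 in sWAT), and it followed the brighter one over the 18 arrays at r = 0.891. Its arrays at 6°C lay above those at 28°C in both white depots.

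Slc27a4 (FATP4), a fatty acid transporter and synthetase of the endoplasmic reticulum known from intestine and skin, was at 9.43, 9.19 and 9.30 in BAT at 28°C and 9.79, 9.70 and 9.76 at 6°C. The BAT groups did not overlap, but their difference of 0.45 ± 0.18 had an adjusted p of 0.12. In sWAT, Slc27a4 was at 8.84, 9.10 and 9.56 at 28°C and at 9.43 to 9.57 at 6°C. The mWAT arrays ranged from 8.75 to 9.31 over both temperatures. At 6°C Slc27a4 was higher in BAT than in mWAT (0.74 ± 0.18, adjusted p = 0.0034), with no overlap. This call was lost in the fit of the compared groups alone (adjusted p = 0.018), with the lymphocyte list as a covariate (0.37, adjusted p = 0.14), and without the first or the third BAT array at 6°C or the first or second mWAT array at 6°C.

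Slc27a3 (FATP3), a family member with acyl-CoA synthetase activity and no settled transport role, lay near the array medians, between 6.61 and 7.74 on the 18 arrays. It passed the threshold in none of the 13 comparisons. At 28°C it was at 6.82 to 6.90 in BAT and 7.43 to 7.74 in sWAT, groups that did not overlap, with a difference of -0.72 ± 0.23 and an adjusted p of 0.022. Without both mWAT arrays numbered 3 the adjusted p of that difference was 0.0018, and with the lymphocyte list as a covariate the difference was -1.39 with an adjusted p of 0.00028. Slc27a5 (FATP5), the bile acyl-CoA synthetase of liver, is not among the 10 genes. Its probe set had group means of 4.23 to 5.14, under the array medians in all 6 groups.

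Acsl5, a synthetase of the endoplasmic reticulum and outer mitochondrial membrane that is known from intestine, was bright in every group and brightest in cold BAT. Its log2 intensities in BAT were 12.49, 12.30 and 12.14 at 28°C and 13.73, 13.61 and 13.74 at 6°C. In sWAT they were 11.91, 11.98 and 11.72 at 28°C and 12.44, 12.06 and 12.36 at 6°C. In mWAT they were 11.68, 11.64 and 11.44 at 28°C and 12.06, 11.77 and 11.58 at 6°C. Each cold BAT array lay more than 1 log2 unit above every other array. In BAT the log2 intensity of Acsl5 rose by 1.38 ± 0.15, or 2.61-fold (adjusted p = 6.0e-05). Acsl5 kept this call in all 11 alternatives and in all 18 fits without 1 array. Of these 11, the looser adjusted p threshold on the main fit could not end the call. Between the BAT groups the mean of 7 adipocyte markers was 12.97 to 13.17 at 28°C and 12.40 to 12.79 at 6°C, and that of 7 intestinal epithelium markers, under the array medians, was 5.49 to 5.63 and 6.10 to 6.23. Their part in the Acsl5 difference was not tested. The difference in sWAT was 0.42 ± 0.15 (adjusted p = 0.22), with no overlap of the arrays. In mWAT it was 0.22 ± 0.15, with a 95% confidence interval from -0.10 to 0.53.

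Between depots, Acsl5 was higher in BAT than in mWAT by 0.73 ± 0.15 at 28°C (adjusted p = 0.0012) and by 1.89 ± 0.15 at 6°C (adjusted p = 2.0e-07). The former call was lost in the fit of the compared groups alone (adjusted p = 0.013). BAT exceeded sWAT by 1.41 ± 0.15 at 6°C (adjusted p = 7.8e-06), and the difference of 0.44 ± 0.15 at 28°C missed the threshold (adjusted p = 0.029). Acsl5 in cold sWAT and in warm BAT overlapped, with a difference of -0.03 and a 95% confidence interval from -0.34 to 0.29. By mean level the groups ran BAT at 6°C, BAT at 28°C, sWAT at 6°C, sWAT at 28°C, mWAT at 6°C and mWAT at 28°C. That is the order of Slc27a2 too, which shares these arrays. Of the neighbours in the order of Acsl5, those after the first either overlapped or missed the threshold where they were compared.

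Acsl6, a synthetase known from brain that favours docosahexaenoic acid, was the member with its signal in mWAT. Its brightest probe set was at 7.31, 6.47 and 8.28 in mWAT at 28°C and at 7.45, 7.30 and 8.52 at 6°C. In BAT it was at 2.95, 6.25 and 5.81 at 28°C and at 4.78, 4.11 and 4.25 at 6°C. In sWAT it was at 3.64, 5.68 and 3.04 at 28°C and at 3.25, 4.99 and 3.88 at 6°C. Every mWAT array lay above every array of the other depots. The BAT and sWAT arrays were all under the array medians, and so was the second mWAT array at 28°C (6.47). Acsl6 was lower in BAT than in mWAT at 6°C (-3.37 ± 0.82, adjusted p = 0.0034) and lower in sWAT than in mWAT at 6°C (-3.72 ± 0.82, adjusted p = 0.0065). Without both mWAT arrays numbered 3 these were -2.99 (adjusted p = 0.014) and -3.33 (adjusted p = 0.022). Leaving out the second or the third BAT array or the third mWAT array at 6°C ended the first call. The second was lost without the first or the third sWAT array or any 1 mWAT array at 6°C.

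At 28°C the Acsl6 differences were -2.35 ± 0.82 for BAT (adjusted p = 0.033) and -3.23 ± 0.82 for sWAT against mWAT (adjusted p = 0.019). The latter passed without the first BAT array or the second sWAT array at 28°C and with log2 of the intensity plus 32. Both passed with the mean of the Acsl6 probe sets (-2.33, adjusted p = 0.0067, and -2.94, adjusted p = 0.0044) and with the muscle list as a covariate (-4.34, adjusted p = 0.0010, and -4.52, adjusted p = 0.00086). The muscle list had the order of Acsl6 among the arrays of some groups. Its means were 8.54, 12.63 and 12.12 in BAT at 28°C and 6.26, 10.99 and 7.07 in sWAT at 6°C, both in the order of Acsl6. In sWAT at 28°C they were 9.86, 11.43 and 7.39, again in that order. In BAT at 6°C they were 7.54, 10.15 and 8.31, the reverse of the order of Acsl6. The mWAT means were 6.32, 7.24 and 6.77 at 28°C and 6.15, 6.42 and 6.21 at 6°C, neither in the order of Acsl6. A dimmer Acsl6 probe set had smaller SEs and passed at 28°C, with -2.30 ± 0.55 (adjusted p = 0.0040) and -2.64 ± 0.55 (adjusted p = 0.0055). Its group means were under the array medians in all 6 groups, at 6.17 and 6.25 in mWAT. Temperature made no difference past the threshold, with -0.62 ± 0.82 in BAT, -0.08 ± 0.82 in sWAT and 0.40 ± 0.82 in mWAT. The mean of 7 measured neuron and glia markers (of 10) was 8.67 to 9.78 in mWAT and at most 6.65 in the other depots. The 6 mesothelial markers averaged 10.07 to 11.55 in mWAT and at most 6.91 elsewhere. Their part in the Acsl6 differences was not tested. The ERR element shown above lies before the first start site of this gene.

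Acsl3, a synthetase of the endoplasmic reticulum and lipid droplets, was at 10.23 to 10.26 in BAT at 28°C and 10.19 to 10.57 at 6°C. In sWAT it was at 9.47 to 9.90 at 28°C and at 9.87, 8.89 and 9.37 at 6°C. In mWAT it was at 9.40 to 9.92 at 28°C and at 9.31, 8.49 and 9.89 at 6°C. Every BAT array lay above every white fat array. The Acsl3 level was higher in BAT than in mWAT at 6°C by 1.15 ± 0.30 (adjusted p = 0.0051), and a further probe set also passed (1.14 ± 0.28, adjusted p = 0.0038). The first of these calls was lost in the fit of the compared groups alone (adjusted p = 0.042), with the lymphocyte list as a covariate (0.49, adjusted p = 0.22), and without the second or the third BAT array or the first or second mWAT array at 6°C. Against sWAT at 6°C the difference of 1.0 ± 0.30 had an adjusted p of 0.016. Acsl3 differed by 0.14 ± 0.30 between temperatures in BAT, by -0.31 ± 0.30 in sWAT and by -0.44 ± 0.30 in mWAT, none past the threshold.

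Acsl4, a synthetase with a preference for arachidonic acid, had the narrowest range of the 8 genes. Its brightest probe set lay between 10.73 and 11.41 on the 18 arrays, with group means of 10.91 to 11.14. It passed in none of the 13 comparisons, and its groups overlapped in all pairs of depots and in all 3 depots between temperatures. The cold difference was 0.05 in BAT (95% confidence interval -0.32 to 0.41), -0.03 in sWAT (-0.40 to 0.33) and 0.04 in mWAT (-0.32 to 0.41). Its dimmer probe sets followed the bright one poorly over the 18 arrays (r = 0.298 and r = 0.0238), and neither passed in any comparison.

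Counted over the depots, 2 of the 8 genes passed between BAT and sWAT at 28°C (Slc27a2 higher and Slc27a1 lower in BAT), beside 27.5% of all genes. At 6°C 3 passed (Slc27a2 and Acsl5 higher, Slc27a1 lower in BAT), beside 26.8%. Between BAT and mWAT 2 passed at 28°C (Slc27a2 and Acsl5, both higher in BAT), beside 32.5%. At 6°C 6 of 8 passed (Slc27a2, Acsl5, Acsl3 and Slc27a4 higher, Slc27a1 and Acsl6 lower in BAT), beside 40.1%. This count fell to 2 without the third BAT array at 6°C, whose mean of the pancreas markers was 10.64. Without the second mWAT array at 6°C, where that mean was 14.08, the calls of Acsl3 and Slc27a4 were lost. What part pancreas has in this count was not tested. Between sWAT and mWAT 0 of 8 passed at 28°C in limma, beside 7.87%. At an unadjusted p under 0.05 there were 2 of 8, beside 4562 of 18193 genes. At 6°C 2 passed (Slc27a2 higher and Acsl6 lower in sWAT), beside 10.2%. Between cold sWAT and warm BAT 2 passed (Slc27a1 higher and Slc27a2 lower in sWAT), beside 17.4%. With 8 genes these counts are a description, and none was tested against the share of all genes. Centring each array on its median moved the median log2 difference of all genes from 0.08 to 0.22 for BAT against sWAT at 28°C and from 0.10 to 0.29 for BAT against mWAT at 6°C, and the directions given for the named members held under that centring.

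**Figure D3:**
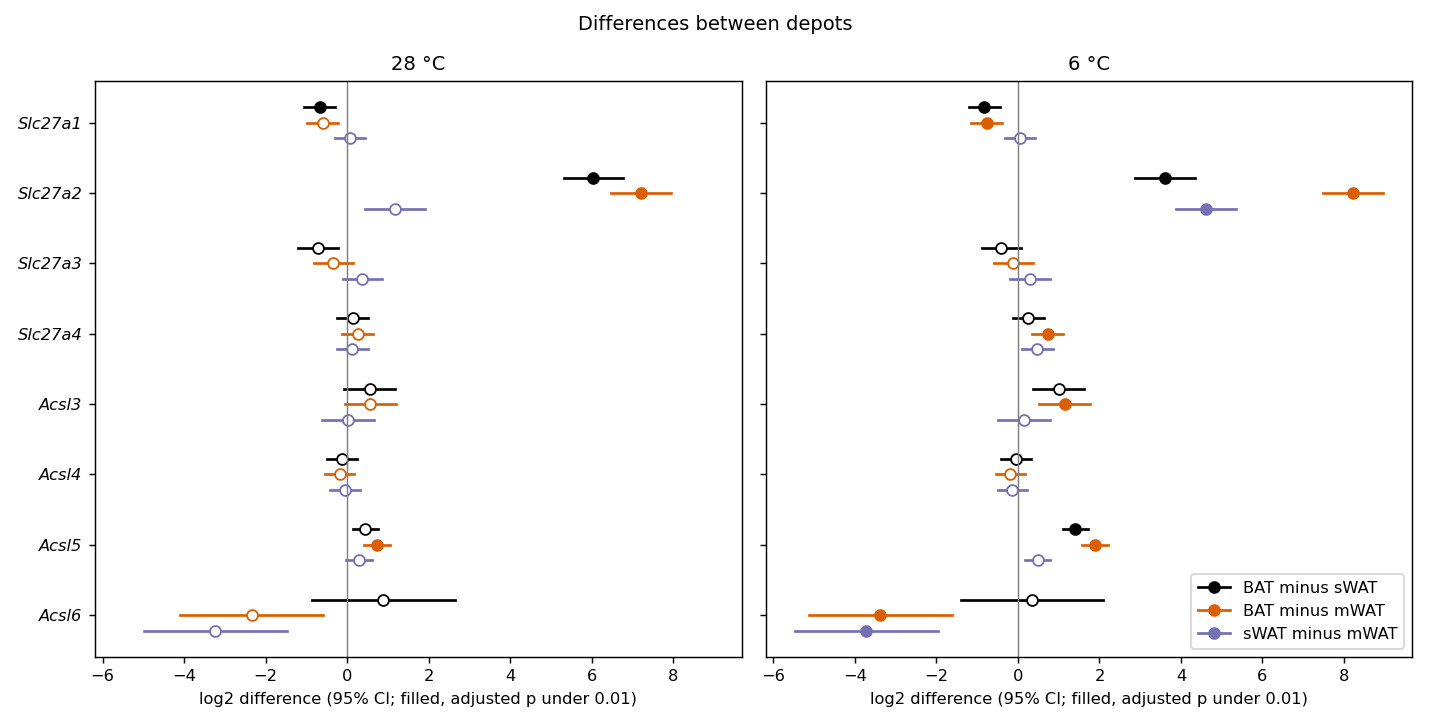
Log2 differences between depots (x axis) of the 8 genes (y axis) at 28°C (left) and 6°C (right), with 95% confidence intervals from the limma fit. Filled points passed an adjusted p of 0.01. Slc27a2 lies far to the right in the BAT comparisons (3.61 to 8.23), and Acsl6 lies to the left wherever mWAT is the second depot (-2.35 to -3.72). All of these but 3.61 involve a group under the array medians, so their sizes are not exact.

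The cold response of Acsl5 was larger in BAT than in mWAT. The difference of the log2 differences was 1.17 ± 0.21 (adjusted p = 0.0098), and Acsl5 was the 1 member of 8 that passed, beside 0.566% of all genes. The value lies just inside the threshold, and of the 18 fits without 1 array it passed in those without the second sWAT array at 6°C or the first mWAT array at 6°C. The adjusted p over those 18 fits ran from 0.0088 to 0.031. Between BAT and sWAT 0 of 8 passed in limma, beside 0.467% of all genes. At an unadjusted p under 0.05 there were 2 of 8, beside 2703 of 18193 genes. Acsl5 responded more in BAT by 0.97 ± 0.21 (adjusted p = 0.031), and the log2 difference of Slc27a2 was smaller in BAT by 2.43 (-2.43 ± 0.48, adjusted p = 0.022), neither past the threshold. Between sWAT and mWAT 0 of 8 passed (1 at an unadjusted p under 0.05), beside 0% of all genes (1025 of 18193 at an unadjusted p under 0.05). That 1 gene was Slc27a2, with 3.45 ± 0.48 and an adjusted p of 0.037. Both Slc27a2 values passed without the third mWAT array at 6°C. The comparisons of BAT with sWAT and with mWAT share the BAT arrays.

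Genes of the steps around fatty acid activation were counted in 7 lists with 90 measured genes. The lists were chosen with earlier results of these data known. Their counts beside the share of all genes are therefore a description and not an independent finding. In cold BAT, where 5.33% of all genes passed, 3 of 12 other acyl-CoA synthetases did. Acsf2, a mitochondrial synthetase of medium-chain fatty acids, rose by 1.38 ± 0.13. Aacs, which activates acetoacetate in the cytosol, rose by 1.40 ± 0.28. Acsm5, a mitochondrial medium-chain synthetase, fell by 2.05 (SE 0.32). Of 17 genes of fatty acid uptake and binding, Ffar4, a receptor for long-chain fatty acids, rose by 2.75 ± 0.21, and Mfsd2a, a transporter of lysophospholipids, rose by 2.57 ± 0.27. Among 12 thioesterases, which split acyl-CoA, Acot12 rose by 4.0 ± 0.21, from a level under the array medians, and Acot8 by 1.31 ± 0.11. Gpat4, Agpat1 and Lpin2 of triglyceride synthesis rose by 1.07, 0.88 and 0.63, and the 13 other genes of that list did not pass. In addition, 1 of 7 acyl-CoA binding proteins (Acbd4, 0.72) and 1 of 16 regulators (Ppard, 0.75) rose. None of the 10 genes of acyl-CoA entry into mitochondria and peroxisomes passed in BAT, and Cpt1b is not among these genes.

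In cold sWAT, where 0.742% of all genes passed, Acsf2 (1.33 ± 0.13) and Acsf3 (1.07 ± 0.19), a mitochondrial malonyl-CoA synthetase, rose among the 12 synthetases. Fabp3, the fatty acid binding protein of heart and brown fat, rose by 3.30 ± 0.30 and Ffar4 by 1.71 ± 0.21, and the 15 other genes of uptake and binding did not pass. Cpt2 and Slc25a20, which carry acyl groups into mitochondria, rose by 0.96 ± 0.14 and 0.76 ± 0.11. Cpt1b, which the study lists among the genes raised in cold sWAT, is not in the list of entry. Of the thioesterases Acot11 rose by 2.71 ± 0.20 and Acot5, dim in both groups, by 1.43 ± 0.24, of triglyceride synthesis Gpat4 by 1.12 ± 0.14, and of the regulators Ppara by 3.01 ± 0.27 and Esrrg by 1.51 ± 0.20. None of the 7 acyl-CoA binding proteins passed, and no gene of any list passed as lower. Mfsd2a and Esrrb lay lower on all cold arrays than on all warm ones without passing (-1.28, adjusted p = 0.030, and -1.63, adjusted p = 0.13), and were chosen after their values were seen. In mWAT 0 of the 90 genes passed in limma. The medians of the lists in cold BAT ran from 0.03 for uptake and binding to 0.66 for the thioesterases, and in cold sWAT from 0.14 for uptake and binding to 0.54 for entry, beside medians of all genes of 0.01 in BAT and -0.0016 in sWAT.

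**Figure D4:**
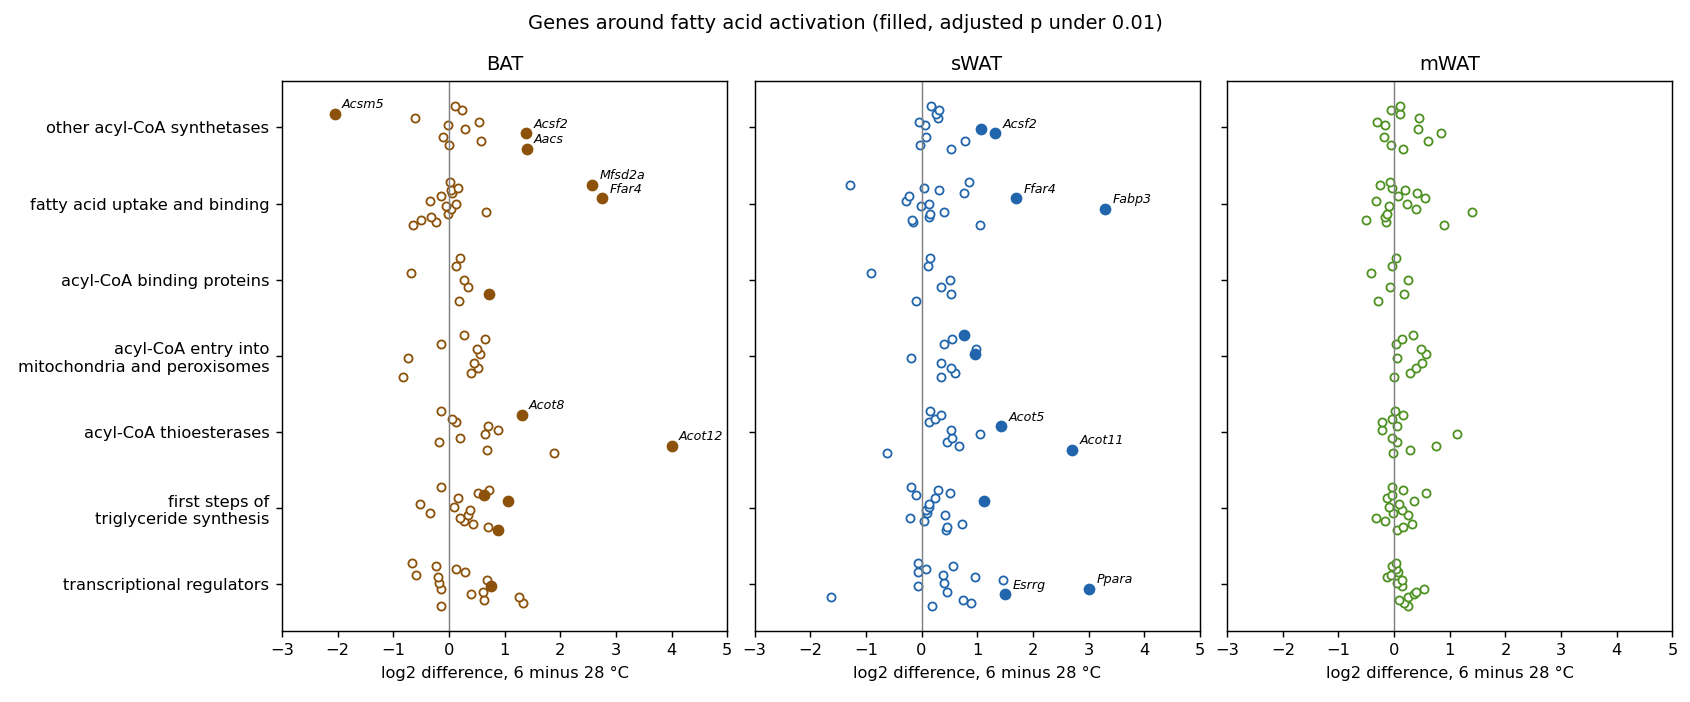
Log2 difference between 6 and 28°C (x axis) of 90 genes in 7 lists (y axis) in BAT, sWAT and mWAT. Each point is 1 gene by its brightest probe set, filled where the adjusted p was under 0.01, and the filled points beyond 1.3 in either direction are named. Filled points number 12 in BAT, 11 in sWAT and 0 in mWAT.

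The lists were also counted between depots at 28°C, where 27.5% of all genes passed for BAT against sWAT and 32.5% for BAT against mWAT. Against sWAT, warm BAT was higher in 5 of 12 other synthetases, among them Acsf3 (2.04 ± 0.19) and Acss1 (1.58 ± 0.17), a mitochondrial acetyl-CoA synthetase, and lower in 0. All 10 genes of acyl-CoA entry passed, 7 higher in BAT, as Crot (1.06 ± 0.15) and Slc25a20 (1.04 ± 0.11), and 3 lower, as Cpt1c (-1.19 ± 0.29), the brain form of carnitine palmitoyltransferase. Cpt1b, the muscle form, is not among these 10 genes. The study lists it as higher in BAT than in either white depot at 28°C. Of 16 regulators 8 were higher in BAT and 0 lower, with Ppara at 5.59 ± 0.27 and Esrrg at 3.61 ± 0.20. Uptake and binding had 5 higher, with Fabp3 at 4.28 ± 0.30, and 1 lower, Mfsd2a at -2.19 ± 0.27. Thioesterases had 5 higher, with Acot11 at 3.23 ± 0.20, and 1 lower, Acot1 at -2.26 ± 0.48. Triglyceride synthesis was split, with 3 higher, as Gpat4 (1.40 ± 0.14), and 3 lower, as Mogat2 (-1.44 ± 0.37). None of the 7 acyl-CoA binding proteins passed. Against mWAT, BAT was higher in 5 synthetases, 7 genes of entry and 13 regulators, with 1 gene of entry lower, Cpt1a at -1.22 ± 0.22. Uptake and binding had 7 higher and 0 lower. Triglyceride synthesis had 5 higher and 4 lower, as Mogat2 (-2.53 ± 0.37), and thioesterases had 5 higher and 1 lower, Acot7 (-0.96 ± 0.16). None of the acyl-CoA binding proteins passed.

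Genes whose pattern over the 18 arrays was most like that of a member were sought among 8138 genes whose group means span at least 1 on the log2 scale, for the members that span at least 2. For Slc27a2 these were Pnldc1, a poly(A)-specific ribonuclease (r = 0.993), Btf3l4 (0.991), Rasl2-9 (0.988), Letmd1, a mitochondrial protein (0.987), and Vps33a, of vesicle sorting (0.987). For Acsl5 they were Pop7, an RNase P subunit (0.976), Lipa, the lysosomal acid lipase (0.973), Bmp8b, a secreted growth factor (0.972), Acot8, a peroxisomal thioesterase (0.971), and Gpn2 (0.963). For Acsl6 they were Hhatl (0.974), Atcayos (0.969), Klhl30 (0.968), Myom1, a sarcomere protein (0.966), and Jph2, of muscle membrane junctions (0.957). The 18 arrays of a correlation share depot and temperature, and each value describes these arrays alone. Skeletal muscle markers had means of 6.15 to 7.24 in mWAT, where Acsl6 was highest, and of 7.54 to 12.63 in BAT.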

How the data were processed

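RNA of BAT, sWAT and mWAT (Trizol and RNeasy, amplified with NuGEN Ovation) was hybridized to 18 Affymetrix mouse arrays. The deposited table holds linear intensities by probe set and array. Background adjustment, summarization and normalization had been done by the authors in Bioconductor (affy). The algorithm is not given in the sources used here, and the methods and figure legends name different array types. Normalization between arrays can hide a shift that all genes share.

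Groups were taken from the titles. The log2 of the intensities was fitted in R 4.3.3 with limma 3.58.1 as 6 group means over 18 arrays (12 residual and 2.64 prior degrees of freedom), with 13 contrasts. P-values were two-sided and adjusted by Benjamini-Hochberg over 45037 probe sets, without 64 control probe sets. The threshold was an adjusted p of 0.01, after the methods. Errors beside differences are SEs. Of the probe sets 34945 name 1 gene, 932 several and 9160 none, and a gene is given by its probe set of highest mean. Detection values are not part of the table, and precision is limited by the 3 arrays of a group. P-values set a difference against the spread of arrays within groups, pooled over the 6 groups and moderated over the probe sets. All 18 arrays were taken as independent, though arrays of different depots may come from the same mice. The fit was tested on simulated data. Alternatives were an adjusted p of 0.05, quantile normalization, median centring, a filter on dim probe sets, a variance trend, the mean of a gene's probe sets, the compared groups alone, arrays left out, a muscle or lymphocyte list mean as a covariate, and log2 of the intensity plus 32. The adjusted p of 0.05 only loosens the threshold of the main fit, so calls at 0.01 and near misses pass there in any case. The lymphocyte covariate was chosen after seeing the data. Named genes are the members, up to 4 genes of a list with the largest change among those past the threshold, and the 5 genes of highest r. The members and lists were chosen with earlier results of these data known. Protein sequences were not used here.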

Additional observations from a re-analysis of the deposited data

Results flagged for a closer look

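The 6 minus 28°C difference of Acsl5 was larger in BAT (1.38) than in mWAT (0.22), and the test of this difference gave 1.17 ± 0.21 on the log2 scale with an adjusted p of 0.0098. It was singled out because the same contrast differed between 2 depots. The adjusted p ran from 0.0021 to 0.036 over the alternatives, and it passed the threshold in 8 of 11 of them. These 8 include the looser adjusted p threshold on the main fit, which could not end the call. They also include the lymphocyte covariate, which was chosen after seeing the data. Of the 18 fits without 1 array, 16 lost the call, with adjusted p from 0.0088 to 0.031 over the 18.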

How the results depend on the processing

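Of the values of single members under the 11 alternatives, 1081 kept their side of the threshold, 46 newly passed and 17 no longer passed. Over the fits without 1 array the counts were 1811, 15 and 46. Among the alternatives, the looser adjusted p threshold on the main fit can only add calls. The sign of 39 values changed under the alternatives and that of 62 in the fits without 1 array, and none of these passed the threshold in either fit. Past the threshold, the count of members in cold BAT moved from 1 to 2, with Slc27a2 added, under an adjusted p of 0.05, median centring, dim probe sets left out, a variance trend with robust estimates, the groups compared alone, both mWAT arrays numbered 3 left out, log2 of the intensity plus 32, or the lymphocyte covariate. With the groups compared alone it became 0 in sWAT between temperatures, 1 for BAT against mWAT at 28°C, 3 for BAT against mWAT at 6°C and 0 for the cold response of BAT minus mWAT. At an adjusted p of 0.05 it was 4 for BAT against sWAT and 4 for BAT against mWAT at 28°C, 2 for sWAT against mWAT at 28°C, 2 for the cold response of BAT minus sWAT and 1 for that of sWAT minus mWAT. The mean of all probe sets of a gene gave 1 for BAT against sWAT and 1 for sWAT against mWAT at 28°C. Without both mWAT arrays numbered 3 it was 1 for sWAT against mWAT at 6°C, 1 for the cold response of BAT minus sWAT, 0 for BAT minus mWAT and 1 for sWAT minus mWAT. The muscle covariate gave 1 for sWAT against mWAT at 28°C and 0 for the cold response of BAT minus mWAT, and the lymphocyte covariate gave 4 for BAT against mWAT at 28°C. Adding 32 gave 1 for sWAT against mWAT at 28°C. Adding 32 and the variance trend each gave 1 for the cold response of BAT minus sWAT and 1 for that of sWAT minus mWAT. Moves of a count that were small beside the count itself are not listed here. The cause of the moves was not tested.

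Leaving out each array in turn, the count of members ranged from 1 to 2 in cold BAT, 1 to 3 for BAT against sWAT and 0 to 1 for sWAT against mWAT at 28°C, 2 to 6 for BAT against mWAT and 1 to 2 for sWAT against mWAT at 6°C, and 0 to 1 for each of the 3 differences of cold responses. No paired analysis was possible because no label ties arrays to mice, and the replicate numbers only name the arrays. The 3 arrays of a group and the missing detection values limit what can be said of dim members such as Acsl6.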
